A study of Mus musculus with 6 samples.

Results

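The genes of 10 ligands, counter-receptors and ectoenzymes through which tumour cells restrain immune cells were examined, out of 34718 genes in the count table. They were taken by name: Cd274, Pdcd1lg2, Cd276, Vtcn1, Pvr, Lgals9, Tnfrsf14, Cd47, Nt5e and Entpd1. All 10 names occur once in the table. Messenger RNA was sequenced from Hepa1-6, a mouse hepatoma line grown in culture without other cells. Both groups came from this line: 3 libraries titled shNC and labelled control, and 3 titled shZfp207 and labelled Zfp207 knockdown, where Zfp207 is the mouse counterpart of the zinc finger gene ZNF207. The sources used here do not give the number of hairpins, their delivery, whether a clone or a pool was used, or the time after delivery. Nor do they say whether the libraries came from separate cultures, so p-values measure the spread between these libraries, which may be technical.

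Immune checkpoints are pairs of a ligand and a receptor that limit the activity of T cells, natural killer cells or phagocytes. PD-L1 and PD-L2, encoded by Cd274 and Pdcd1lg2, bind the receptor PD-1 on T cells, and the B7 relatives B7-H3 (Cd276) and B7-H4 (Vtcn1) dampen T cells through receptors that are less well defined. CD155 (Pvr) binds the inhibitory receptor TIGIT and the activating receptor CD226, galectin-9 (Lgals9) binds TIM-3, HVEM (Tnfrsf14) binds BTLA, and CD47 binds SIRP-alpha on macrophages and so restrains phagocytosis. CD39 (Entpd1) and CD73 (Nt5e) act in sequence on the cell surface, converting extracellular ATP to AMP and AMP to adenosine, which inhibits T cells. Liver tumour cells can carry several of these proteins, and interferon gamma from T cells is a known inducer of PD-L1.

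Cd274 and Pdcd1lg2 are neighbours on the plus strand of chromosome 19 in mm10, Cd274 from 29367455 to 29388095 and Pdcd1lg2 from 29410919 to 29471157, with 22823 bases between them. The upstream stretch of Pdcd1lg2 is shown because this gene was called higher. It is the 250 bases before the RefSeq start site on GRCm38.p6, the assembly that mm10 denotes, at chr19:29410669-29410918, written 5′ to 3′ on the plus strand. The same stretch of Cd274, at chr19:29367188-29367437, was searched but is not printed: most of it lies within Plgrkt, a gene on the minus strand from 29348599 to 29367390 that starts beside Cd274 and runs away from it, and it holds untranslated sequence of that gene. Capitals mark matches to the motifs named in the next paragraph.
Pdcd1lg2: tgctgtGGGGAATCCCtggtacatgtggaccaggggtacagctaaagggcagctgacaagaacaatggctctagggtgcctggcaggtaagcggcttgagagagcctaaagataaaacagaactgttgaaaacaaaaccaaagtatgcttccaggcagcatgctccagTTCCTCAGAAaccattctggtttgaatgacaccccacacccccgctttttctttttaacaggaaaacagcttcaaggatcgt

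The motifs searched on both strands were the interferon-stimulated element (GAAA and GAAA spaced by 2 bases of any kind), the STAT6-type element (TTC and GAA spaced by 4 bases), the NF-kappaB consensus and the AP-1 element TGANTCA. The Pdcd1lg2 stretch held an NF-kappaB consensus match, GGGGAATCCC, at -244 to -235 from the start site and a STAT6-type match, TTCCTCAGAA, at -82 to -73. The Cd274 stretch held none of these 4 motifs. Over 32851 RefSeq stretches of the same length, 7.25% held the NF-kappaB consensus, 5.85% the STAT6-type element, 2.98% the interferon-stimulated element and 6.75% the AP-1 element. The Cd274 stretch had 11 CpG dinucleotides and that of Pdcd1lg2 had 3, against a median of 6 over all stretches. RefSeq stretches were matched for 9 of the 10 genes, all but Pvr. Among the others, Lgals9 held TTTCTTTTTC at -55 to -46 and Tnfrsf14 held TTTCATTTTC at -64 to -55, both matches to the interferon-stimulated element read on the other strand. A match describes letters in the window, and binding was not measured.

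Gene counts summed to between 11933736 and 16248346 per library. A count of 0 allows up to 3 counts, or 0.185 to 0.251 counts per 1000000 counts of the library (CPM), and these limits cover counting error only. Zfp207 had 141.4 to 216.8 CPM in the shNC libraries and 46.8 to 48.1 CPM in the shZfp207 libraries (log2 fold change -1.95 with an SE of 0.17, adjusted p = 0.00236 by edgeR). The 13 mitochondrially encoded genes took 10.5% of the counts in control replicate 1, 2.89% and 2.67% in control replicates 2 and 3, and 5.6% to 6% in the shZfp207 libraries. Control replicate 1 thus stood apart, and each result below is given with and without it where it matters. Of 12 hepatocyte lineage markers 9 were measured well enough to test, with Alb, Afp, Hnf4a, Krt8 and Krt18 abundant, while Ttr, Apoh and Serpina1a had at most 5 counts in any library. Of these 9, 7 were called between the groups, or 77.8% against 20.6% of all genes: Alb, Afp and Apoa1 were higher and Apoa2, Trf, Krt8 and Krt18 lower in knockdown cells. Of 11 markers of T and natural killer cells, 9 had a count of 0 in every library, including Cd3e, Cd8a and Prf1, and the other 2 had 1 count each over all libraries. Of 5 B cell markers, 1 could be tested and was not called (log2 fold change 1.02). The summed level of that list was 3.02 to 16.8 CPM in control and 14.9 to 27.0 CPM in knockdown libraries. For 5 endothelial markers, 2 of them tested and 0 called, it was 1.51 to 3.85 CPM in control and 2.06 to 3.01 CPM in knockdown libraries. Of 10 myeloid markers, Itgax and Tyrobp had 0 counts in every library and Ptprc had at most 8, and the summed level of the list was 36.2 to 41.3 CPM in control and 43.3 to 44.6 CPM in knockdown libraries, mostly Cd68 and Cd14. Csf1r, a macrophage receptor gene, had 2, 6 and 14 counts in the shNC libraries and 52, 48 and 45 in the shZfp207 libraries, and up to 15.1% of its exonic sequence overlaps an opposite-strand gene. Of 8 markers of fibroblasts and stellate cells, the summed level was 2046 to 2310 CPM in control and 2702 to 2785 CPM in knockdown libraries, nearly all from Dcn, which encodes the matrix proteoglycan decorin (log2 fold change 0.33, adjusted p = 0.0968 by edgeR). Among the others Pdgfra was called lower (-0.54, adjusted p = 0.0181 by edgeR), Lrat had 0 counts in every library, Col3a1 and Pdgfrb at most 1 and Col1a2 at most 3. The part of these markers in the results below was not tested.

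On a scale that corrects for gene length (FPKM), the 10 genes spanned a wide range and fell into 3 tiers. Lgals9, Pvr, Pdcd1lg2, Cd274, Cd276 and Cd47 had at least 8.02 FPKM in every library, Nt5e and Tnfrsf14 lay between 0.336 and 1.41 FPKM, and Vtcn1 and Entpd1 were at or below 0.101 FPKM. Lgals9 was the highest in the shNC libraries, at 29.4, 45.7 and 46.3 FPKM against 25.9, 33.4 and 32.6 FPKM for Pvr. In the knockdown libraries Pvr came first in all 3, at 44.5, 43.5 and 43.6 FPKM against 41.0, 43.2 and 43.6 FPKM for Lgals9, and in replicates 2 and 3 this gap was smaller than the spread between libraries. The deposited FPKM imply 3277 bases for Lgals9 and 6504 for Pvr, against 2137 and 6122 bases of annotated exons. The order of Lgals9 and Pvr in the knockdown libraries therefore depends on the lengths used. Pdcd1lg2 had rank 3 in all 6 libraries, and Cd274 rank 4 in all but control replicate 1, where it had rank 6 after Cd276 and Cd47. These ranks depend on the lengths too, since the FPKM imply 5645 bases for Cd276 against 3658 bases of annotated exons. In deposited FPKM, PD-L2 message thus exceeded PD-L1 message in each library. Those values imply 1649 bases for Pdcd1lg2 and 3631 for Cd274, against 1961 and 3622 bases of annotated exons. The size of the ratio of Pdcd1lg2 to Cd274 thus depends on the lengths used, and with other lengths their order could too. Levels on exonic lengths were not computed. The ratio of Pdcd1lg2 to Cd274 in FPKM was 1.59, 1.20 and 1.20 in control replicates 1 to 3 and 1.58, 1.61 and 1.76 in knockdown replicates 1 to 3. The groups overlapped in this ratio, since control replicate 1 lay within the knockdown range. Cd276 lay above Cd47 within every library, and Nt5e above Tnfrsf14 in all but knockdown replicate 1.

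**Figure D1:**
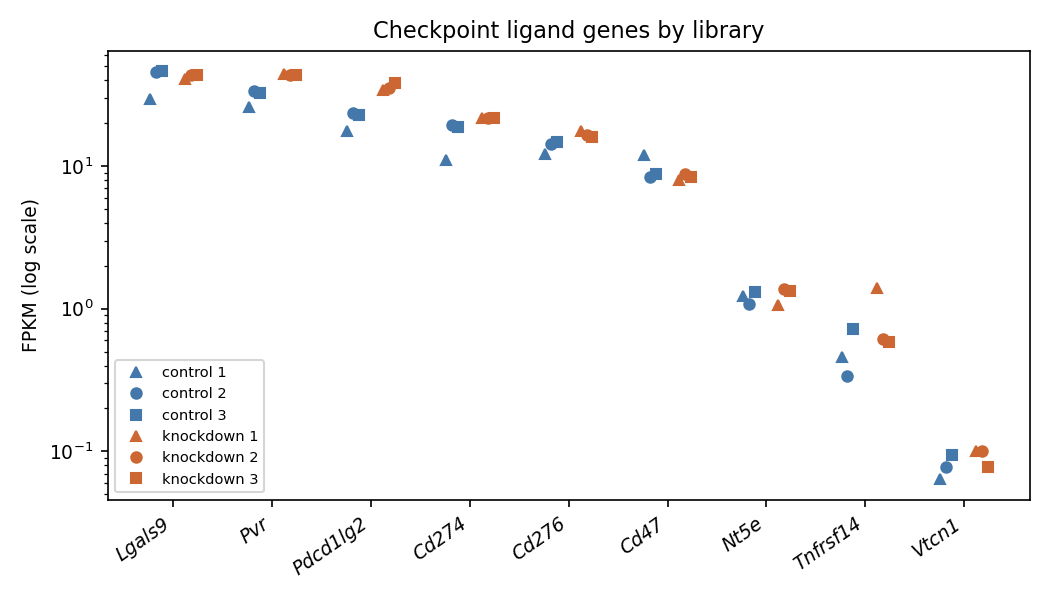
FPKM on a log axis for 9 of the 10 genes, ordered by mean level, with 1 point per library (blue control, orange knockdown, symbols for replicates 1 to 3). Entpd1, with a count of 0 in 4 libraries, is not drawn, and Pdcd1lg2, Pvr, Cd274 and Cd276 show knockdown points above all control points.

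In knockdown cells, Pdcd1lg2 and Pvr were higher than in control cells, by 1.70-fold and 1.44-fold. Of the 10 genes, 8 had enough counts to be tested, and 2 of these 8 were called higher and 0 lower (edgeR adjusted p below 0.05), while DESeq2 and limma on log2 FPKM also called 2 higher and 0 lower. At an unadjusted p below 0.05 edgeR had 3 higher and 0 lower. The share of all tested genes at that looser threshold is not given here, and it cannot be below the adjusted share. Over all 11975 genes tested, 20.6% were called, 9.92% higher and 10.7% lower, against 25% (2 of 8) here. All 3 knockdown libraries lay above all 3 control libraries at 4 of the 8 genes, namely Pdcd1lg2, Pvr, Cd274 and Cd276, where 22.3% of all tested genes did so. The opposite order, found at 22.4% of all tested genes, occurred at 0 of the 8. The median log2 fold change was 0.35 over the 8 genes and -0.03 over all genes tested. Without control replicate 1 these medians were 0.20 and 0.01. An exact two-sided permutation test of 3 against 3 libraries cannot give a p below 0.1, the value reached at those 4 genes.

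The PD-1 ligands differed in how far they separated the groups. Pdcd1lg2 had 28.8, 38.7 and 37.4 CPM in shNC replicates 1 to 3 and 56.2, 57.8 and 63.2 CPM in knockdown replicates 1 to 3. The lowest knockdown library was thus well above the highest control library, with control replicate 1 the lowest of all. On the scale used for testing, scaled by the TMM method, the level rose from 34.9 ± 5.57 to 59.4 ± 3.97 CPM (SD, n = 3 each; log2 fold change 0.77 with an SE of 0.14, adjusted p = 0.0136 by edgeR). Its exons overlap no other annotated gene. Cd274 had 39.8, 70.7 and 68.7 CPM in the shNC libraries and 78.4, 79.2 and 78.9 CPM in the shZfp207 libraries. The knockdown libraries were close together and above all controls, but control replicate 1 was far below the other controls. The means were 59.6 ± 17.6 and 79.3 ± 0.817 CPM, and the log2 fold change of 0.41 (SE 0.22) did not pass the test (adjusted p = 0.225 by edgeR). Of the exonic sequence of Cd274, 14.1% overlaps a gene on the opposite strand, and the sources used here do not say whether counting used strand. Whether the changes of Pdcd1lg2 and Cd274 differ from each other was not tested.

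Of the other B7 genes, Cd276 was abundant and Vtcn1 near the detection limit. Cd276 (chromosome 9, 58524300 to 58555132, minus strand) had 68.6, 80.6 and 83.9 CPM in the shNC libraries and 99.1, 93.8 and 90.6 CPM in the shZfp207 libraries. Again all knockdown libraries lay above all control libraries. The means were 77.5 ± 8.46 and 95 ± 3.81 CPM (log2 fold change 0.29, SE 0.11), and the edgeR adjusted p of 0.0987 missed the threshold. Up to 11.4% of its exonic sequence overlaps an opposite-strand gene. Vtcn1 (chromosome 3, 100825459 to 100896922, plus strand) had 2, 3 and 4 counts in the shNC libraries and 4, 4 and 3 in the shZfp207 libraries. Summed over the libraries of a group this was 0.210 CPM in control (95% exact counting interval 0.0962 to 0.399) and 0.245 CPM in knockdown cells (0.122 to 0.438), so that a difference was not detectable at this depth.

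Pvr, which encodes the TIGIT ligand CD155, was the other gene called higher. It lies on the minus strand of chromosome 7 from 19903578 to 19921160 and shares no exonic sequence with another annotated gene. It had 168, 217 and 212 CPM in the shNC libraries and 289, 283 and 284 CPM in the shZfp207 libraries. The groups did not overlap, and the 3 knockdown libraries were nearly equal. Pvr rose from 198.7 ± 28.2 to 286.7 ± 2.01 CPM (log2 fold change 0.53 with an SE of 0.12, adjusted p = 0.0272 by edgeR).

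Lgals9, Tnfrsf14 and Cd47 did not pass the test. Galectin-9 message (Lgals9, chromosome 11, 78962974 to 78984946, minus strand) was at 96.2, 149.9 and 152 CPM in the shNC libraries and 134, 141 and 143 CPM in the shZfp207 libraries. Control replicate 1 was the lowest library and the other controls were the highest, so the groups overlapped (log2 fold change 0.09 with an SE of 0.18, adjusted p = 0.773 by edgeR). Cd47 (chromosome 16, 49855618 to 49915010, plus strand) was at 67.6, 47.1 and 50.0 CPM in the shNC libraries and 45.3, 50.0 and 47.3 CPM in the shZfp207 libraries. Only control replicate 1 lay outside the range of the others, on the high side, and the log2 fold change was -0.19 (SE 0.15, adjusted p = 0.400 by edgeR). Tnfrsf14 (chromosome 4, 154922210 to 154928563, minus strand), the HVEM gene, had 9, 8 and 19 counts in the shNC libraries and 35, 15 and 14 in the shZfp207 libraries. One library, knockdown replicate 1 at 2.30 CPM, was above all others, which lay between 0.548 and 1.17 CPM. The log2 fold change of 0.78 had an SE of 0.49 (adjusted p = 0.299 by edgeR), and without knockdown replicate 1 it was 0.25.

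Of the adenosine-forming pair, Hepa1-6 cells carried message for CD73 and almost none for CD39. Nt5e (chromosome 9, 88327197 to 88372092, plus strand) was at 11.7, 10.3 and 12.4 CPM in the shNC libraries and 10.1, 13 and 12.6 CPM in the shZfp207 libraries. The groups overlapped fully, with means of 11.4 ± 1.03 and 12 ± 1.63 CPM (log2 fold change 0.07 with an SE of 0.15, adjusted p = 0.789 by edgeR). Entpd1 (chromosome 19, 40612366 to 40741602, plus strand) had 1 count in control replicate 1, 1 in knockdown replicate 1 and 0 in the other 4 libraries. Each group's sum of 1 count corresponds to at most 0.130 CPM in control and 0.124 CPM in knockdown cells at the upper bound of the 95% exact counting interval.

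Control replicate 1 was below both other control libraries at 5 of the 8 tested genes (Cd274, Pdcd1lg2, Cd276, Pvr and Lgals9) and above both at 1, Cd47. For Cd274 it lay 0.83 below their mean on the log2 scale (value -0.83), further than the knockdown libraries lay above it (0.19). Without control replicate 1, 4 of the 8 genes were called higher and 0 lower by edgeR, where 52.1% of the 12108 genes tested were called, 26.1% in each direction. The log2 fold changes were then 0.64 for Pdcd1lg2 (SE 0.08, adjusted p = 0.000595 by edgeR), 0.42 for Pvr (SE 0.04, adjusted p = 0.00016 by edgeR), 0.21 for Cd276 (SE 0.06, adjusted p = 0.0196 by edgeR) and 0.19 for Cd274 (SE 0.05, adjusted p = 0.0221 by edgeR). All 4 were smaller than with every library included. For Cd274 the value fell below its size with all libraries by more than 1.5 times while the call was gained. Lgals9 changed sign to -0.10 (adjusted p = 0.102 by edgeR), and Cd47 moved to -0.02 (adjusted p = 0.799 by edgeR). The part of the mitochondrial share in these values was not tested.

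**Figure D2:**
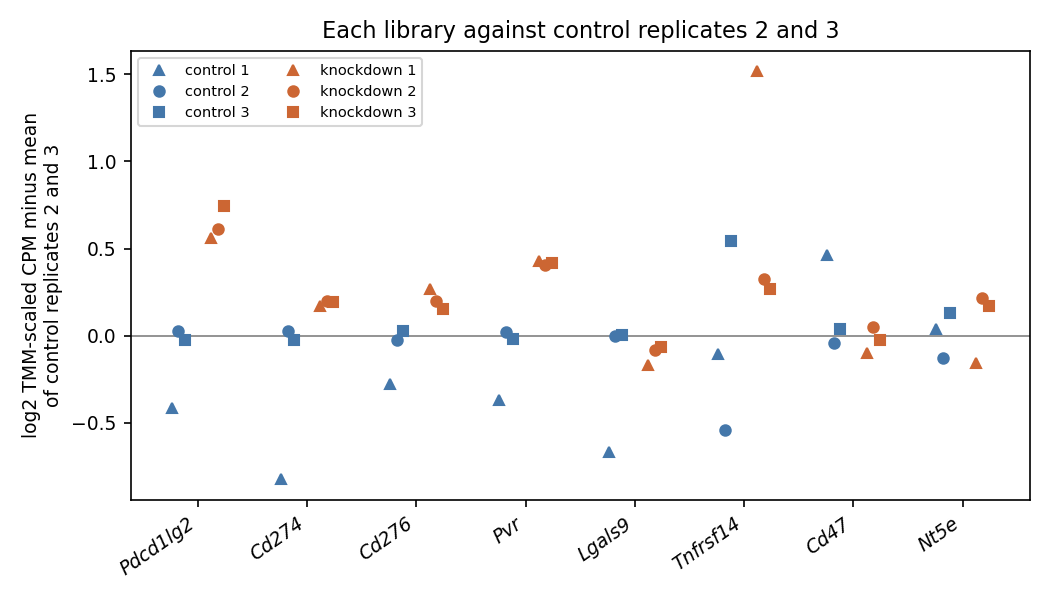
The log2 TMM-scaled CPM of each library minus the mean of control replicates 2 and 3, for the 8 tested genes (blue control, orange knockdown, symbols for replicates). Control replicate 1 (blue triangles) is at -0.83 for Cd274 and 0.46 for Cd47, and the knockdown points of Pdcd1lg2 lie between 0.56 and 0.75.

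The calls of Pdcd1lg2 and Pvr also rested on having all knockdown libraries. Pdcd1lg2 kept a log2 fold change of 0.64 to 0.85 with each library left out, and its edgeR adjusted p was 0.0549, 0.0643 and 0.0720 without knockdown replicate 1, 2 and 3. For Pvr the log2 fold change stayed between 0.42 and 0.60, and the edgeR adjusted p was 0.103, 0.105 and 0.109 without knockdown replicate 1, 2 and 3 and 0.0624 without control replicate 3. Fewer genes were called in all those fits: 5.93%, 4.91% and 4.37% of the genes tested without knockdown replicate 1, 2 and 3, 10.4% without control replicate 3 and 12.5% without control replicate 2.

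**Figure D3:**
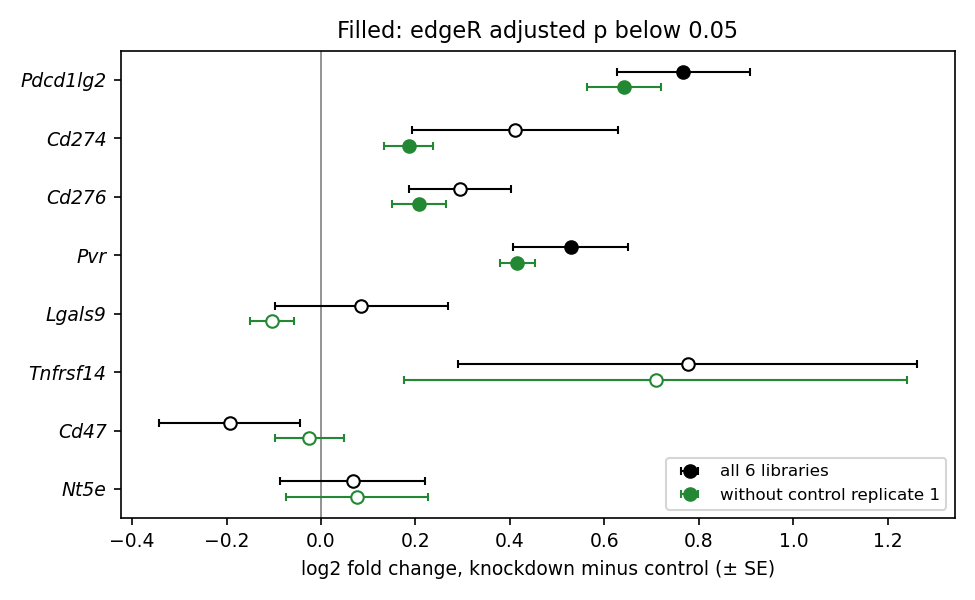
Log2 fold changes, knockdown minus control, with their SE for the 8 tested genes with all 6 libraries (black) and without control replicate 1 (green), filled where the edgeR adjusted p is below 0.05. Pdcd1lg2 and Pvr are filled in both fits, while Cd274 and Cd276 are filled only in the green fit and at smaller values.

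Genes that control PD-L1 were present throughout, and a few were higher in knockdown cells. Of 37 genes listed for interferon gamma signalling, transcription, stability, glycosylation and shedding of PD-L1, 37 could be tested, and 4 were called higher and 0 lower. This was 10.8% called against 20.6% of all genes, and 10.8% higher against 9.92%. Irf1, the transcription factor through which interferon gamma acts on Cd274, had 21.3, 22.1 and 22.8 CPM in the shNC libraries and 33.1, 35.7 and 33.4 CPM in the shZfp207 libraries. The 2 groups were clearly apart and control replicate 1 was close to its group (log2 fold change 0.64 with an SE of 0.10, adjusted p = 0.00865 by edgeR). Cmtm4, a membrane protein gene related to the PD-L1 stabiliser Cmtm6, rose from 92.3 ± 19.9 to 212.6 ± 3.29 CPM (1.20, SE 0.16, adjusted p = 0.00627 by edgeR). Cmtm6 itself had a log2 fold change of 0.02 (adjusted p = 0.902 by edgeR), with a sign that turned under upper-quartile scaling (-0.03) and without control replicate 1 (-0.07). The interferon gamma receptor gene Ifngr1 rose by 0.41 and the galactosyltransferase gene B4galt1 by 0.31 on the log2 scale (adjusted p = 0.0341 and 0.0349 by edgeR). The kinase genes Jak1 and Jak2 had log2 fold changes of 0.30 and 0.15, and the second receptor chain Ifngr2 one of 0.40, with edgeR adjusted p between 0.260 and 0.380. Without control replicate 1, Ifngr2 and Jak2 were called, at 0.71 and 0.23 (adjusted p = 0.000952 and 0.0034 by edgeR). That fit called 52.1% of all genes, and genes of this list in both directions. Rela and Hif1a, given outside the naming rule, were called lower there, at -0.57 and -0.46 (adjusted p = 0.000278 and 0.00032 by edgeR). With all libraries, the median over the 37 genes was 0.12. The call of Cmtm4 held in all 6 fits that left a library out, and Irf1, Ifngr1 and B4galt1 lost theirs in at least 1 such fit.

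Within 500 kb of Cd274 lay 19 genes of the table, of which 17 had any count and 13 could be tested, with 2 called higher and 1 lower, or 23.1% called against 20.6% of all genes. Besides Pdcd1lg2, the other one called higher was Cdc37l1, a cochaperone gene 377 kb before the start of Cd274 (position -377), with a log2 fold change of 0.61 (adjusted p = 0.0126 by edgeR). Ranbp6, an importin family gene 441 kb after it, fell by 0.79 on the log2 scale (adjusted p = 0.0348 by edgeR). Plgrkt, a plasminogen receptor gene whose start lies 64 bases from that of Cd274 and which is read the other way, had a log2 fold change of -0.29 (its SE was 0.23, adjusted p = 0.397 by edgeR). Ric1 and Ermp1, the next tested genes after Pdcd1lg2, had log2 fold changes of 0.55 and 0.31 (adjusted p = 0.0994 and 0.179 by edgeR). Ppapdc2, Ak3, Rcl1, Jak2, Insl6 and 9930021J03Rik also did not pass, with log2 fold changes from -0.36 to 0.76. Rln1, 4430402I18Rik, 1700018L02Rik and A930007I19Rik had too few counts to test.

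**Figure D4:**
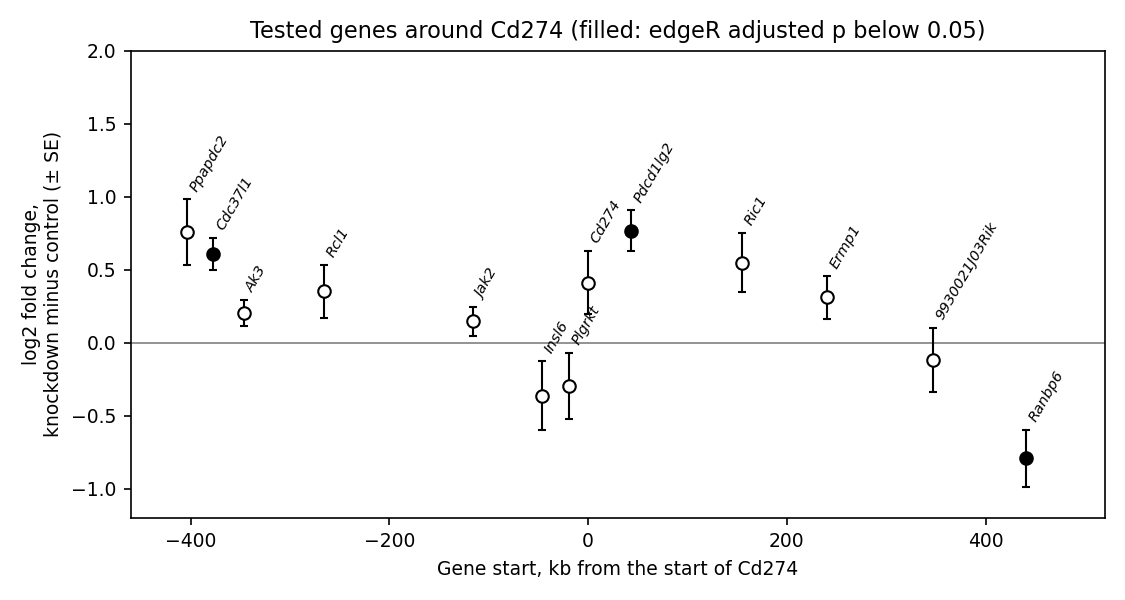
Log2 fold change with its SE for the 13 tested genes around Cd274, by the distance of each gene's start from that of Cd274 in kb, filled where the edgeR adjusted p is below 0.05. Pdcd1lg2 at 43.5 kb is filled at 0.77, with unfilled genes on both sides.

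Partners of the other members included some of the largest differences. Thbs1, which encodes thrombospondin-1, a secreted ligand of CD47, had 168, 412 and 420.2 CPM in the shNC libraries and 1474, 1473 and 1457 CPM in the shZfp207 libraries. The groups were far apart, with control replicate 1 again the lowest (log2 fold change 2.15 with an SE of 0.34, adjusted p = 0.00925 by edgeR). Lrp1, the phagocytic receptor of calreticulin, rose from 65.7 ± 11.0 to 188.8 ± 10.2 CPM (1.52, adjusted p = 0.00281 by edgeR). Qpctl, which encodes the enzyme that modifies the SIRP-alpha binding site of CD47, had a log2 fold change of 0.47 (adjusted p = 0.199 by edgeR), and without control replicate 1 one of 0.73 (adjusted p = 0.00526 by edgeR). Sirpa had 0 counts in every library. For Pvr, its relatives Nectin2 (listed as Pvrl2) and Nectin3 (Pvrl3) had log2 fold changes of 0.08 and -0.12 (adjusted p = 0.517 and 0.672 by edgeR). Nectin3 changed sign without control replicate 1, to 0.10 (adjusted p = 0.325 by edgeR). Nectin2, another TIGIT ligand, was at 68.9 to 77.5 CPM in control and 76.0 to 78.0 CPM in knockdown libraries. The genes of the nectin list with the highest CPM, the adhesion gene Cadm1 and the afadin gene (Mllt4), had log2 fold changes of -0.20 and 0.55 (adjusted p = 0.158 and 0.305 by edgeR). These 4 genes passed neither by edgeR nor by DESeq2 nor by limma.

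Of the galectins other than Lgals9, Lgals1, Lgals3 and Lgals8 were lower, and the galectin-binding Lgals3bp was higher. These 4 of 6 tested genes of the list are 66.7%, against 20.6% of all genes. Lgals1, encoding galectin-1, a secreted lectin that can kill activated T cells, fell from 940.3 ± 147.5 to 571.8 ± 43.4 CPM (log2 fold change -0.72, adjusted p = 0.017 by edgeR). Lgals3, encoding galectin-3, a ligand of LAG-3, fell from 373.8 ± 9.57 to 236.5 ± 9.75 CPM (-0.66, adjusted p = 0.00551 by edgeR), and Lgals8 fell by 0.41 on the log2 scale (adjusted p = 0.043 by edgeR). Lgals3bp, which encodes a glycoprotein that binds galectins, rose from 60.7 ± 2.22 to 96.5 ± 6.77 CPM (0.67, adjusted p = 0.00643 by edgeR). The calls of Lgals3 and Lgals3bp held in all 6 fits that left a library out, while Lgals1 and Lgals8 did not.

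The genes around CD73 and CD39 were mixed, with 3 higher and 3 lower of 17 tested, or 35.3% called against 20.6% of all genes and 17.6% higher against 9.92%. Adk, encoding adenosine kinase, which removes adenosine inside the cell, rose by 0.48 on the log2 scale (adjusted p = 0.0179 by edgeR), and Entpd7, an intracellular relative of CD39, by 1.46 (adjusted p = 0.0035 by edgeR). Cd38, which encodes an ectoenzyme that consumes NAD, rose by 0.92 (adjusted p = 0.0228 by edgeR). The cytosolic nucleotidase gene Nt5c2 and the adenosine receptor gene Adora2a fell by 0.65 and 1.66 on the log2 scale (adjusted p = 0.0125 and 0.0251 by edgeR), the latter from 26 to 42 counts per control library to 9 to 16 per knockdown library. The ectonucleotidase gene Entpd3 had 19 to 50 counts in the shNC libraries and 3 to 12 in the shZfp207 libraries, was also called lower, and is given to complete the count. Adora2b had 2 counts in control replicate 1 and 0 elsewhere. Of these 6 calls only that of Entpd7 held with each library left out.

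Ligands of other checkpoints were mostly low or did not pass. Fgl1, a hepatocyte-secreted LAG-3 ligand, had a log2 fold change of 0.01 (its SE was 0.19, adjusted p = 0.984 by edgeR). Its sign turned under upper-quartile scaling (-0.05) and without control replicate 1 (-0.18, adjusted p = 0.134 by edgeR). Spp1, which encodes osteopontin, fell from 813.4 ± 120.3 to 370.9 ± 4.99 CPM (-1.13, adjusted p = 0.00397 by edgeR), the 1 called gene of 8 tested in that list. It shares up to 18.8% of its exonic sequence with a same-strand gene. The costimulatory receptor gene Cd40 fell from 8.28 ± 1.09 to 3.86 ± 0.898 CPM (-1.10, adjusted p = 0.0174 by edgeR), and lost its call in 3 of the 6 fits with a library left out. Of the B7 and butyrophilin relatives only Ildr2 and Cd80 could be tested. Ildr2, a B7-like gene, fell from 7.15 ± 1.38 to 1.24 ± 0.310 CPM (-2.52, adjusted p = 0.00357 by edgeR). Up to 11.0% of its exonic sequence overlaps an opposite-strand gene. Cd80, which binds CD28 and CTLA-4 and also PD-L1, had 24, 7 and 13 counts in the shNC libraries and 44, 54 and 47 in the shZfp207 libraries (1.60, adjusted p = 0.0591 by edgeR) and is given here because of its values, outside the naming rule. The methods differed for Cd80, which passed with adjusted p = 0.0152 by DESeq2 and 0.0431 by limma on log2 FPKM. Without control replicate 1 it was called, at 2.31 (adjusted p = 0.000822 by edgeR).

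Of the receptors that lymphocytes and phagocytes carry for these ligands, only Tigit could be tested, although markers of T cells were at or near 0. Tigit had 46.3, 85.5 and 89.7 CPM in the shNC libraries and 114, 104 and 101 CPM in the shZfp207 libraries. All knockdown libraries were above all controls, but the log2 fold change of 0.53 (SE 0.24) did not pass (adjusted p = 0.17 by edgeR). Without control replicate 1 it was 0.28 (adjusted p = 0.00867 by edgeR). Per length it was at 48.0 to 92.9 FPKM in control and 104 to 118 FPKM in knockdown libraries, above its ligand Pvr in every library. Its exons overlap no other annotated gene, and where along the gene the reads lie was not analysed here. Pdcd1 had 0 counts in the shNC libraries and 4, 0 and 1 in the shZfp207 libraries, and Ctla4 and Cd226 had 0 in all 6.

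Taking these lists as one, 87 of 140 genes were tested, of which 10 were called higher and 9 lower, or 21.8% against 20.6% of all genes. Their median log2 fold change was 0.08. Of the 19 called, 8 kept the call with each library left out: Ildr2, Lgals3, Lgals3bp, Thbs1, Lrp1, Entpd7, Cmtm4 and Spp1. Called genes made up 33.3% of the CD47 list (2 of 6), 25% of the HVEM list (1 of 4), 50% of the B7 and butyrophilin list (1 of 2) and 12.5% of the other inhibitory ligands (1 of 8). Without control replicate 1, 26 of the 87 were called higher and 24 lower, in a fit where 26.1% of all genes were called in each direction.

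**Figure D5:**
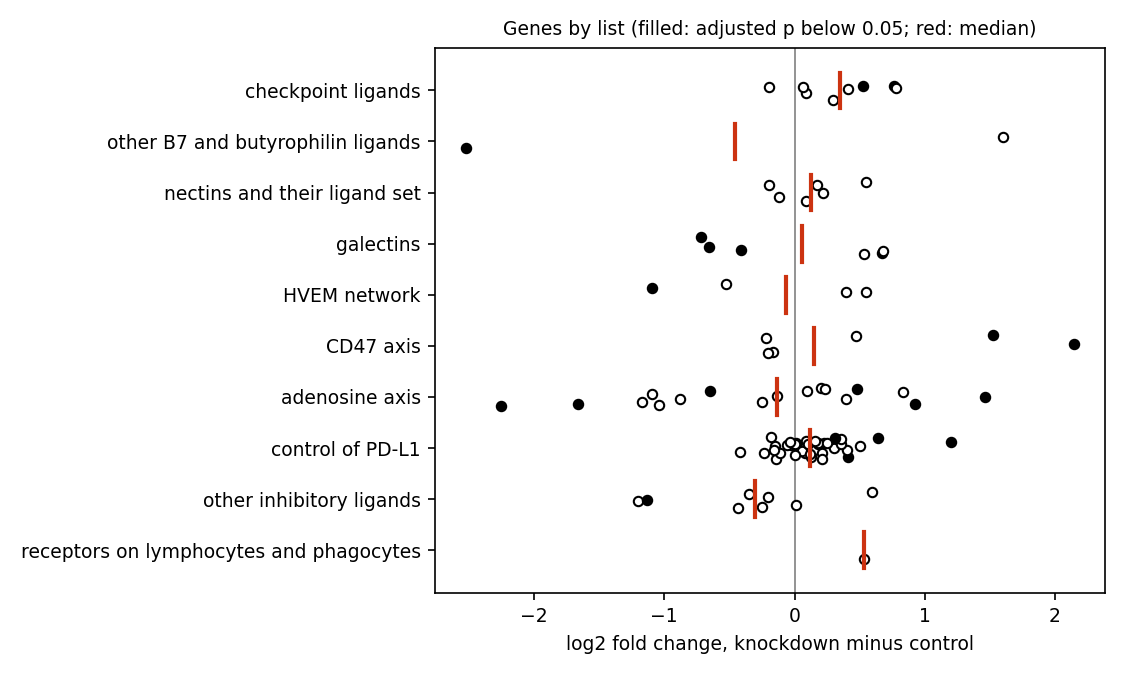
Log2 fold changes of every tested gene by list, filled where the edgeR adjusted p is below 0.05, with the list's median as a red line. With all 6 libraries, as drawn, the checkpoint ligands have a median of 0.35, and single related genes such as Thbs1 (2.15) and Ildr2 (-2.52) lie far from their list median.

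The protein-coding genes whose log2 CPM followed Pdcd1lg2 most closely over the 6 libraries were Cipc, Txlna and Dcn (Pearson r = 0.999, 0.998 and 0.998). For Pvr they were Tmed6, Clca3b and Ndst1 (r = 1.00, 1.00 and 0.999). Dcn, the fibroblast marker described above, was at 2019 to 2281 CPM in control and 2682 to 2765 CPM in knockdown libraries. These are descriptions over 6 libraries that share a group difference and 1 deviating control. At r of at least 0.95, 652 and 725 of 11236 genes compared followed Pdcd1lg2 and Pvr.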

How the data were processed

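The authors deposited whole-number read counts per gene, with no normalization, and FPKM values for the same 34718 genes in 6 libraries, per the file headers. The submitters' processing notes name mm10 as the build, and as tools featureCounts 1.5.0-p3 and HISAT2 2.0.5, without their roles. The sources used here do not give the annotation, strand setting or filters. The deposited counts were tested in R 4.3.3 with edgeR 4.0.16 across all genes: filterByExpr on the groups, TMM scaling, a quasi-likelihood fit with the group as its only term, two-sided p-values and Benjamini-Hochberg adjustment over all 11975 genes that passed. The threshold was an adjusted p below 0.05. The SE is the size of the log2 fold change divided by the square root of the F statistic. CPM of single libraries are relative to that library's total (per 1000000), and group means ± SD are TMM-scaled. Levels of different genes were compared in FPKM, and CPM ranked genes only in the rule for naming them. Exonic overlap comes from GENCODE mouse release M21, in which 98.6% of the identifiers were found, and promoter sequences come from RefSeq on GRCm38.p6.

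The members and lists were chosen with earlier results of these data known. Named genes were all members, Zfp207, up to 5 called genes with the smallest p per list (the 2 with the highest CPM where none was called), 14 regulators and partners taken whatever their values, genes within 500 kb of Cd274, and the 3 genes most correlated with each called member. One gene that the rule names, and one motif, are not reported here. Genes named outside it are marked, and those given only by counts, by a level near 0 or as markers carry no test. The code was tested on simulated data. The alternatives tried were scaling by RLE or by the upper quartile, a minimum of 1 count in place of the filter, at least 1 CPM in 3 libraries, DESeq2 1.42.0, limma 3.58.1 on log2(FPKM + 0.1), the replicate number as a block, and each library left out.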

Additional observations from a re-analysis of the deposited data

How the results depend on the processing

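The number of checkpoint ligand genes called was 2 higher and 0 lower under RLE and upper-quartile scaling, both other filters, DESeq2 and limma on log2 FPKM. With each library left out it was 0 to 4 higher, the 4 being without control replicate 1 and the 0 without any 1 knockdown replicate, and 0 lower. Over the same fits the related genes numbered 5 to 26 higher and 3 to 24 lower, and all genes called 534 to 6313. The log2 fold change of Zfp207 kept its direction and call under every alternative run. Of 103 values for the 8 tested members, 90 kept their direction and side of the threshold, 8 lost it, 2 gained it and 3 changed sign: Lgals9 without control replicate 1 (-0.10), and Nt5e without control replicate 2 (-0.0019) or knockdown replicate 2 (-0.0022), all at values that did not pass either way. With each library left out, Lgals9 ranged from -0.10 to 0.19 and Nt5e from -0.0022 to 0.18. Tnfrsf14 gave no value with the filter of 1 CPM in 3 libraries. The same-numbered libraries of the groups did not deviate together (r of -0.01, 0.01 and 0.05 over genes), and not every library correlated best with its own number. The replicate block left 1 checkpoint ligand gene higher, Pdcd1lg2, with 6 related genes higher and 4 lower and 987 genes called in all, or 8.24% of those tested. There Pvr had a log2 fold change of 0.54 (edgeR adjusted p = 0.0688). Vtcn1, Entpd1 and most immune receptor genes had too few counts for a difference to be seen.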
